A study of Homo sapiens with 6 samples.

Results

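The genes described here are 10 factors and products of the epithelial-mesenchymal transition (EMT) in LoVo cells: the transcription factors SNAI1, SNAI2, TWIST1, ZEB1 and ZEB2, the mesenchymal products VIM and FN1, and the epithelial guardians GRHL2, ESRP1 and OVOL1. They were chosen by gene symbol, and all 10 have a row among the 19223 symbols of the RNA table. LoVo is an established human cell line, derived from an adenocarcinoma of the colon. RNA was sequenced from 3 Control cultures and from 3 cultures treated with DCC-2036 (Rebastinib), a tyrosine kinase inhibitor, at 2.5 μM. The sample labels give 48 h for both groups, whereas a figure legend of the study gives a shorter treatment. Nothing in the labels says whether the 3 cultures of a group were grown separately, so the tests measure the spread between these libraries, which may be technical. The values are a normalized signal per RefSeq transcript, not read counts, so the depth behind each library is unknown. How they were scaled is not given in the sources used here. Totals of the values ran from 38997229 in Control replicate 1 to 48023306 in DCC-2036 replicate 3, and all 3 DCC-2036 totals were above all 3 Control totals.

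In EMT, epithelial cells loosen their junctions and take on a motile, fibroblast-like form. The SNAI, TWIST and ZEB factors bind E-box sequences and repress junction genes such as CDH1, while vimentin and fibronectin are products that mesenchymal cells make in quantity. Guardians oppose this: GRHL2 and OVOL1 keep ZEB1 down and junction genes on, and ESRP1 holds many transcripts in their epithelial splice form.

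The labelled cell type was checked against 8 colon epithelial markers. EPCAM, CDH1, KRT8, KRT18, KRT19 and CDX2 were well above a value of 10 in all 6 libraries. KRT20, a keratin of differentiated colon cells, was low, at 64.1, 43.6 and 51.5 in Control, against 17.7, 28.0 and 24.6 with DCC-2036. VIL1, which encodes the microvillus protein villin, was below 5 in every library. Of the 7 markers high enough to be tested, 2 were higher with DCC-2036 at an adjusted p under 0.01 in limma, CDH1 and KRT8, beside 19.2% of all tested genes, and 1 was lower, KRT20 (adjusted p = 0.00427), beside 22.7%. Their median log2 fold change was 0.29. PTPRC, the pan-leukocyte marker, was listed at 0 in all 6 libraries. Of 4 leukocyte and 3 endothelial markers, CD68 and VWF alone were high enough to be tested (adjusted p = 0.837 and 0.0611, limma). VWF was low, at 10.4, 4.15 and 13.0 in Control, against 33.0, 15.3 and 15.6 with DCC-2036. Its groups did not overlap, and its log2 fold change was 1.16.

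Low values were not recorded in the same way in the groups. In DCC-2036, 5697 transcripts were listed at 0, always in all 3 libraries together, and the smallest value above 0 was 0.00326. In Control, 5929 transcripts were at 0 in all 3 libraries and 3919 more in some of the 3, and the smallest value above 0 was 0.606. TWIST1 and ZEB2, whose values lay at or near 0, are therefore given by library, with no comparison between the groups.

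Each symbol was represented by its most abundant transcript, that with the largest 6-library mean. A symbol was tested where 3 or more libraries reached a value of 10, which 7 of the 10 members and 12725 symbols in all did. The test was limma on log2(value + 1), two-sided and adjusted over all 12725, and a gene was called at an adjusted p under 0.01. Of the 7 tested members, 1 was called higher with DCC-2036, FN1, beside 2442 of all tested genes (19.2%), and 0 were called lower, beside 2887 (22.7%). At an unadjusted p under 0.05 in limma, 3 members were higher, beside 30.5% of all tested genes, and 0 lower, beside 36.1%. At an adjusted p under 0.05 the members' counts were also 3 and 0, beside 28.5% and 33.7%. The groups did not overlap in 3 members, SNAI1, ZEB1 and FN1, all higher with DCC-2036, beside 32.9% of all tested genes higher and 38.1% lower without overlap. The median log2 fold change was 0.34 over the 7 members and -0.09 over all tested genes. When libraries were set to equal totals, the latter was -0.29, so small differences depend on the scaling. In bulk RNA, fewer cells with a transcript and less of it per cell cannot be told apart.

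SNAI1 encodes Snail, a zinc-finger repressor of CDH1 (chr20:49982999-49988886 on the plus strand in GENCODE 29, build GRCh38). Its value was 302, 287 and 343 in Control replicates 1, 2 and 3, and 368, 415 and 392 in DCC-2036 replicates 1, 2 and 3. All 3 DCC-2036 libraries were above all 3 Control libraries, with the gap between Control replicate 3 and DCC-2036 replicate 1 the narrowest. The log2 fold change was 0.34 (95% interval 0.06 to 0.61) and its adjusted p of 0.0384 in limma missed the limit. With equal totals it was 0.14 (adjusted p = 0.280, limma).

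ZEB1 encodes a zinc-finger and homeodomain repressor that stands in mutual repression with the miR-200 family (chr10:31318495-31529814, plus strand). It had the largest log2 fold change of the 7 tested members, at a low level. In Control, its most abundant transcript was at 31.8, 52.1 and 48.9, and with DCC-2036 at 70.6, 98.2 and 69.5. Control replicate 1 was the lowest and DCC-2036 replicate 2 the highest, and the groups did not overlap. The difference on the log2 scale was 0.84 with an SE (standard error) of 0.23, and its adjusted p of 0.0188 in limma missed the limit. ZEB1 has 41 transcripts in the table, forms of the same gene that are not independent of each other. When the mean over transcripts was used in place of the most abundant, ZEB1 was called (log2 fold change 0.96, adjusted p = 0.00921, limma; 0.00921 to 0.0579 over all alternatives). With all transcripts as separate rows, a setting chosen after the data had been seen, the log2 fold changes of the 41 ran from 0.80 to 1.02. Their adjusted p ran from 0.00629 to 0.0253 in limma, so they lay on both sides of the limit.

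The remaining EMT factors were too low to be tested. SNAI2, which encodes Slug, was at 7.56, 7.07 and 3.59 in Control, against 1.15, 14.0 and 22.7 with DCC-2036, so it was below 10 in 4 of the 6 libraries. DCC-2036 replicate 1 was the lowest of all and DCC-2036 replicate 3 the highest, and the groups overlapped. TWIST1, a basic helix-loop-helix factor, was at 1.92, 0 and 0 in Control, against 3.08, 1.10 and 0.054 with DCC-2036. ZEB2, the paralog of ZEB1, was at 0, 7.24 and 3.68 in Control, against 2.10, 3.26 and 4.60 with DCC-2036. TWIST1 and ZEB2 were thus below 10 in all 6 libraries.

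VIM encodes vimentin, the intermediate filament of mesenchymal cells (chr10:17228259-17237593, plus strand). Its value was 242, 105 and 133 in Control, against 288, 144 and 213 with DCC-2036. Replicate 1 was the highest in both groups, and Control replicate 1 lay above DCC-2036 replicates 2 and 3, so the groups overlapped. Its log2 fold change of 0.46 had a 95% interval from -0.43 to 1.36 (adjusted p = 0.309, limma), and it was 0.20 to 0.81 with single libraries left out. With the replicate number as a block, the adjusted p of VIM was 0.0419 in limma, which also missed the limit.

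Of 8 fibroblast markers listed, 5 (COL3A1, DCN, LUM, PDGFRA and THY1) also had replicate 1 as the highest library of both groups, and 3 did not. The share of all genes with that order is not given here, so these counts have no background beside them. COL3A1, a fibrillar collagen, was at 27.6, 6.70 and 8.11 in Control, against 51.5, 11.1 and 8.93 with DCC-2036. POSTN, which encodes periostin and is not among the 8, was chosen after its values had been seen. It was at 27.8, 0 and 0 in Control, against 41.0, 0.219 and 0.438 with DCC-2036. In both, replicate 1 of each group was more than 2-fold above the other libraries of that group. The most abundant of the 8, COL1A1, was highest in Control replicate 2, at 393, and in DCC-2036 replicate 3, at 520.1. COL1A2 was highest in Control replicate 1 (12.4) and DCC-2036 replicate 3 (11.3), and PDGFRB in replicate 2 of both groups (5.30 and 16.1). All 8 summed to 448, 414 and 370.5 in Control, against 525, 456 and 554 with DCC-2036, so that replicate 3 was the highest DCC-2036 library. Without COL1A1 the sums were 67.7, 20.5 and 17.2 in Control, against 95.8, 36.2 and 33.8 with DCC-2036, with replicate 1 the highest of both groups. Of the 8 markers, 6 were too low to be tested. LUM, PDGFRA and THY1, which are among the 5 with replicate 1 highest, were below 10 in all 6 libraries, and neither of the 2 tested markers was called. Among all symbols, 10 had a value of at least 10 and at least 2-fold above both other libraries in replicate 1 of both groups, against 0 for replicate 2 of both and 1 for replicate 3 of both. Unlike numbers gave up to 7, for Control replicate 1 with DCC-2036 replicate 3. This comparison was chosen after the values had been seen, and whether the VIM level has a source in common with these genes was not tested.

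**Figure D1:**
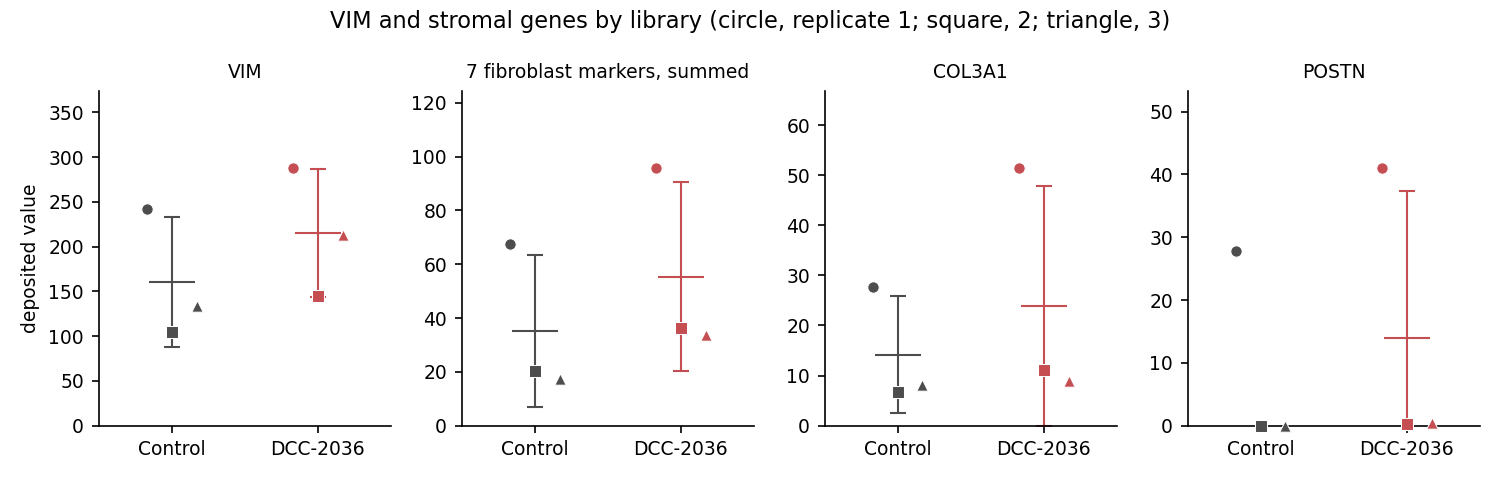
Deposited value of VIM, of 7 fibroblast markers summed (the 8 listed without COL1A1), of COL3A1 and of POSTN in each library, with the mean and SD of 3 libraries where none is at 0. Replicate 1 (circles) is the highest library of its group in each panel. With COL1A1 added to the sum, replicate 3 is the highest DCC-2036 library (554, beside 525 in replicate 1).

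FN1 encodes fibronectin, a glycoprotein of the extracellular matrix, and was the member called (chr2:215360440-215436172, minus strand). In Control, its most abundant transcript was at 476, 536 and 549.6, and with DCC-2036 at 702, 870.0 and 912. The lowest DCC-2036 library, replicate 1, was above the highest Control library, replicate 3, and replicate 1 was the lowest of both groups. FN1 was 1.59-fold higher by the group means, and the difference in mean log2 value was 0.66 with an SE of 0.14 (adjusted p = 0.00640 in limma). The call depended on single libraries. It was lost without Control replicate 1, 2 or 3 (log2 fold changes 0.60, 0.69 and 0.70, adjusted p = 0.0276, 0.0236 and 0.0203 in limma) and without DCC-2036 replicate 2 (0.62, adjusted p = 0.0281). It was also lost with equal totals (0.47, adjusted p = 0.0118) and with no filter on low values (adjusted p = 0.0148). The 10 FN1 transcripts, tested as separate rows, had log2 fold changes of 0.64 to 0.84 (adjusted p = 0.00245 to 0.00944 in limma), but they are forms of the same gene, not replicates.

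The stretch upstream of the FN1 start sites is shown because FN1 was the member called. RefSeq promoter windows (build GRCh38.p14) were at hand for 4 of the 10 members: FN1, VIM, ZEB1 and ZEB2. In the 250 bases before each start, both strands were searched for the E-box of the SNAI and ZEB factors (CACCTG or CAGGTG) and for the cyclic AMP response element (TGACGTCA). The FN1 window held the response element once and the E-box 0 times, the VIM and ZEB2 windows neither, and 2 of 7 ZEB1 windows the E-box. Over all 35116 windows of this length, 17.5% held the E-box and 1.65% the response element. The bases chr2:215436173-215436318 (minus strand), which lie before every annotated FN1 start in GENCODE 29, read 5′ to 3′ as follows, with the response element in capitals.
FN1 upstream: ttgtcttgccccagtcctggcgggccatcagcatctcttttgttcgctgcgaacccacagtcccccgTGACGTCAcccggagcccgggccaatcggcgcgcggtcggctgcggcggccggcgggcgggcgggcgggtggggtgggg
A match of letters describes the window only, and binding there was not measured.

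The guardians gave no call. GRHL2, a grainyhead-like factor that activates junction genes, was at 752, 781 and 812 in Control, against 1079, 1041 and 652 with DCC-2036. DCC-2036 replicates 1 and 2 were above every Control library and replicate 3 was below every one, so the groups overlapped. The SD was 29.8 in Control and 236 in DCC-2036 (n = 3 each). The log2 fold change was 0.21 (95% interval -0.29 to 0.70, adjusted p = 0.408, limma). Without DCC-2036 replicate 3, GRHL2 was called higher (log2 fold change 0.44, adjusted p = 0.00748, limma). The log2 fold change was 0.0761 without DCC-2036 replicate 1, 0.10 without DCC-2036 replicate 2 and 0.0079 with equal totals, and over all alternatives the adjusted p ran from 0.00748 to 0.979.

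OVOL1, a zinc-finger repressor of ZEB1, was at 383, 369 and 388 in Control, against 437, 415 and 282 with DCC-2036 (chr11:65787022-65797219, plus strand). As with GRHL2, DCC-2036 replicates 1 and 2 were above the Control libraries and replicate 3 was below them. The log2 fold change was -0.03 (95% interval -0.47 to 0.40, adjusted p = 0.886, limma), and it turned to 0.17 without DCC-2036 replicate 3 and to 0.05 with median-of-ratios scaling, and was -0.23 with equal totals.

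ESRP1, the epithelial splicing regulator, was at 2787, 2703 and 2519.8 in Control, against 2948, 2579 and 2188 with DCC-2036. DCC-2036 replicate 1 was the highest library and replicate 3 the lowest, and the Control values lay between them. The log2 fold change was -0.06 (95% interval -0.39 to 0.26, adjusted p = 0.698, limma). It turned to 0.05 without DCC-2036 replicate 3 and to 0.02 with median-of-ratios scaling, and was -0.26 with equal totals. All 3 guardians had their lowest value in DCC-2036 replicate 3, which was also the library with the highest total. That library correlated with the Control libraries at 0.8932 to 0.8951, against 0.9385 to 0.9399 for DCC-2036 replicate 1. The correlation between these 2 DCC-2036 libraries was 0.9686. Whether this spread is linked to the guardian values was not tested.

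**Figure D2:**
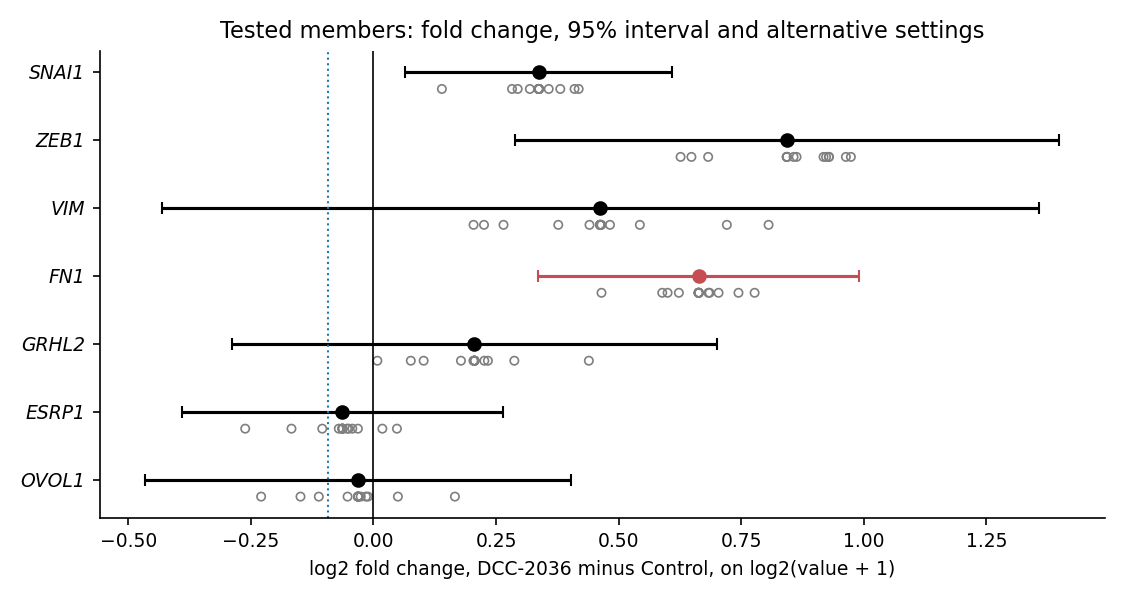
Log2 fold change (DCC-2036 minus Control, on the log2(value + 1) scale) of the 7 tested members with 95% interval, FN1 in red as the member called. Open circles are the values under alternative settings, and the dotted line is the median of all 12725 tested genes, -0.09. The intervals of VIM and the guardians include 0.

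Levels were compared between members per kilobase of the matching GENCODE 29 transcript. This takes the deposited values as not yet adjusted for length, which the sources used here do not state. Without the division, the Control means of GRHL2 (782), FN1 (520) and OVOL1 (380) were above that of SNAI1 (310), so the order below depends on it. In Control, ESRP1 had the highest level per kilobase, 701 ± 35.9 (SD, n = 3). SNAI1 followed at 184 ± 17.1 per kilobase, GRHL2 at 149 ± 5.70 and OVOL1 at 125 ± 3.35. VIM, at 75.0 ± 34.0 per kilobase, and FN1, at 58.4 ± 4.41, did not differ beyond their spread. ZEB1 was at 7.38 ± 1.82 per kilobase and SNAI2 at 3.02 ± 1.08. In DCC-2036 the order was the same, with ESRP1 at 676 ± 99.9 per kilobase, SNAI1 at 232 ± 14.0, GRHL2 at 176 ± 45.1, OVOL1 at 125 ± 27.7, VIM at 101 ± 33.6, FN1 at 93.0 ± 12.5, ZEB1 at 13.3 ± 2.71 and SNAI2 at 6.28 ± 5.40. There the neighbours SNAI1 and GRHL2, GRHL2 and OVOL1, OVOL1 and VIM, VIM and FN1, and ZEB1 and SNAI2 did not differ beyond their spread. TWIST1 and ZEB2 were below 1 per kilobase in the means of both groups.

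Among 10 other EMT transcription factors, 5 were tested, 1 was called higher and 0 lower in limma (19.2% and 22.7% of all tested genes), and 1 was higher and 2 lower at an unadjusted p under 0.05 (30.5% and 36.1% of all tested genes). Their median log2 fold change was -0.44, beside -0.09 over all tested genes. FOXC1, a forkhead factor, rose from 288, 272 and 242 in Control to 423, 447 and 521 in DCC-2036 (log2 fold change 0.79, adjusted p = 0.00256, limma). It lost the call without Control replicate 2 or 3 or DCC-2036 replicate 2 (0.81, 0.72 and 0.81, adjusted p = 0.0128, 0.0131 and 0.0116 in limma). The most abundant of the list were TCF3, which encodes the E2A proteins, at 4839, 4396 and 4799.7 against 4084, 3632 and 2768 (adjusted p = 0.0519, limma), and SOX4. SOX4 was at 4481, 4013 and 4055 in Control, against 4467, 4233 and 4062 with DCC-2036, and its log2 fold change of 0.02 turned to -0.17 with equal totals and to -0.004 and -0.0109 without Control replicate 2 and DCC-2036 replicate 1.

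Among 12 other guardians and epithelial identity factors, 10 were tested, 1 was called higher and 2 lower, beside 19.2% and 22.7% of all tested genes. At an unadjusted p under 0.05 in limma, 2 were higher and 4 lower, beside 30.5% and 36.1% of all tested genes. The median log2 fold change of the 10 was -0.23. The largest fall was that of ESRP2, the paralog of ESRP1 (chr16:68229111-68238102, minus strand). ESRP2 was at 1084, 1106 and 1146 in Control, against 418, 368 and 335 with DCC-2036. The highest DCC-2036 library was far below the lowest Control library, and the difference of -1.58 on the log2 scale, with an SE of 0.12 (adjusted p = 0.000271, limma), was called in all 6 fits with 1 library left out. The 95% interval of ESRP1 given above does not include a change of that size. RBM47, an RNA-binding protein of epithelia, fell from 429.7, 427 and 379 to 279.7, 178 and 167 (log2 fold change -1.02, adjusted p = 0.00635, limma). That call was lost without any 1 of the libraries except DCC-2036 replicate 1 (adjusted p = 0.0104 to 0.0259 in limma, log2 fold changes -0.88 to -1.08), and with no filter on low values (adjusted p = 0.0146).

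FOXA1, a pioneer factor of epithelia, rose from 36.7, 27.9 and 33.1 to 90.1, 76.9 and 67.2 (log2 fold change 1.23, adjusted p = 0.00117, limma), with no overlap between the groups. KLF5, the most abundant of this list, was at 1465, 1399 and 1442 in Control, against 1659, 1893 and 2409 with DCC-2036 (adjusted p = 0.0392, limma). ELF3, an epithelial ETS factor, was at 1196, 1188 and 1259 against 949.8, 813 and 702, with an adjusted p of 0.0104 in limma. ELF3 was called lower without DCC-2036 replicate 1 (log2 fold change -0.68, adjusted p = 0.00311, limma) with equal totals (adjusted p = 0.00743), with a filter of 10 in every library (0.00806) and with a limma trend (0.00365), within a range of 0.00311 to 0.0412 over its alternatives.

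Of 24 epithelial junction and surface genes, 23 were tested, 6 were called higher and 3 lower, beside 19.2% and 22.7% of all tested genes. At an unadjusted p under 0.05 in limma, 12 were higher and 5 lower, beside 30.5% and 36.1% of all tested genes. The median log2 fold change of the 23 was 0.29. CDH1, the E-cadherin gene that the SNAI and ZEB factors repress, was at 1635, 1569 and 1609.7 in Control, against 3305, 3458 and 3571 with DCC-2036 (chr16:68737225-68835548, plus strand). Each DCC-2036 library was about 2-fold above each Control library. On the log2 scale the rise was 1.10 with an SE of 0.09 (adjusted p = 0.000354 in limma), called in all 6 fits with 1 library left out.

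PKP3, a desmosomal plakophilin, rose from 2176, 2299.6 and 2401 to 4981, 5234 and 5702 (log2 fold change 1.21, adjusted p = 0.000379, limma). CRB3, an apical polarity protein, fell from 333, 305 and 288 to 131, 131 and 145 (log2 fold change -1.18, adjusted p = 0.000445, limma). Both calls held in all 6 fits with 1 library left out. The 2 most abundant genes were keratins. KRT8 rose 1.81-fold (log2 fold change 0.84, adjusted p = 0.00287, limma), and it was higher but not called without Control replicate 1, 2 or 3 or DCC-2036 replicate 2 (log2 fold changes 0.79, 0.85, 0.89 and 0.85, adjusted p = 0.0146, 0.0142, 0.0111 and 0.0133). KRT19 had a log2 fold change of 0.04 (adjusted p = 0.729, limma) that turned to -0.16 with equal totals.

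Among 18 mesenchymal products, 7 were too low to be tested, CDH2 (N-cadherin) among them, which was above 10 in DCC-2036 replicate 3 alone. Of the 11 tested, 1 was called higher and 0 lower in limma (19.2% and 22.7% of all tested genes), and 5 were higher and 1 lower at an unadjusted p under 0.05 (30.5% and 36.1% of all tested genes). Their median log2 fold change was 0.55. S100A4, a calcium-binding protein of motile cells, rose from 1303, 1561 and 1606 to 2869.5, 3132 and 3978 (log2 fold change 1.15, adjusted p = 0.00157, limma), in all 6 fits with 1 library left out. ITGA5, a fibronectin receptor subunit and the other most abundant gene of the list, was at 1701, 1584 and 1694 against 2869, 2619 and 1807 (log2 fold change 0.52, adjusted p = 0.0452, limma). As in GRHL2, DCC-2036 replicate 3 was the lowest of its group, and without it ITGA5 was called higher (0.72, adjusted p = 0.00157, limma; 0.00157 to 0.226 over its alternatives).

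Of 12 corepressors that SNAI and ZEB factors recruit, all were tested, 3 were called higher and 0 lower in limma (19.2% and 22.7% of all tested genes), and 5 were higher and 3 lower at an unadjusted p under 0.05 (30.5% and 36.1% of all tested genes). The 3 lower were CTBP1, SUZ12 and SMARCA4 (log2 fold changes -0.82, -0.39 and -0.68, adjusted p = 0.0385, 0.0335 and 0.0183 in limma), none of them called. The median log2 fold change of the 12 was 0.15. KDM1A, the histone demethylase bound by Snail, rose from 5575, 5467 and 5721 to 9784, 11522 and 13180.4 (log2 fold change 1.03, adjusted p = 0.00121, limma), in all 6 fits with 1 library left out. HDAC2, a histone deacetylase, rose 2.65-fold (log2 fold change 1.37, adjusted p = 0.00215, limma), and without Control replicate 1, 2 or 3 its adjusted p was 0.0102, 0.0102 and 0.0113 (log2 fold changes 1.39, 1.38 and 1.34). HDAC1, its paralog, rose 1.47-fold (log2 fold change 0.56, adjusted p = 0.00548, limma). The call of HDAC1 was lost without Control replicate 1, 2 or 3 or DCC-2036 replicate 2 (log2 fold changes 0.51, 0.54, 0.61 and 0.54, adjusted p = 0.0255, 0.0275, 0.0149 and 0.0264 in limma), with equal totals (0.36, adjusted p = 0.0156) and with no filter (adjusted p = 0.0130).

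Of 7 genes whose transcripts ESRP proteins splice, all were tested, 3 were called higher and 1 lower, beside 19.2% and 22.7% of all tested genes. At an unadjusted p under 0.05 in limma, 3 were also higher and 1 lower, beside 30.5% and 36.1% of all tested genes. The median log2 fold change of the 7 was 0.21. CD44, a hyaluronan receptor, rose 1.78-fold (log2 fold change 0.83, adjusted p = 0.00172, limma), and without Control replicate 2 or 3 its adjusted p was 0.0108 and 0.01004 (log2 fold changes 0.80 and 0.83). CTNND1, which encodes p120 catenin, rose 1.64-fold (log2 fold change 0.71, adjusted p = 0.00230, limma). It lost the call without Control replicate 1, 2 or 3 or DCC-2036 replicate 2 (log2 fold changes 0.73, 0.68, 0.71 and 0.66, adjusted p = 0.0105, 0.0141, 0.0126 and 0.0130 in limma) and with equal totals (0.51). RALGPS2 fell to 0.456 of Control (log2 fold change -1.15, adjusted p = 0.00228, limma), and without Control replicate 1 or 3 its adjusted p was 0.0114 and 0.0108 (log2 fold changes -1.07 and -1.17). ENAH, an actin regulator, rose from 1959, 1879.9 and 1712 to 2610.3, 3329 and 3950 (log2 fold change 0.81, adjusted p = 0.00655, limma). Its call was lost without Control replicate 1, 2 or 3 or DCC-2036 replicate 2 (log2 fold changes 0.86, 0.83, 0.76 and 0.80, adjusted p = 0.0205, 0.0240, 0.0285 and 0.0255 in limma). It was also lost with equal totals (0.62, adjusted p = 0.0120) and with no filter (adjusted p = 0.0150).

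Transcripts of these genes differ by exons, and the difference between the values of a transcript with and without an exon was taken as the signal on it. How the deposited values count reads that transcripts have in common is not given in the sources used here. The exons were chosen after the values had been seen, so no test is given. ENAH has an alternative exon of 63 bases that ESRP proteins include in epithelial cells (chr1:225504991-225505053, minus strand, GRCh38, coding sequence). It is shown because its signal moved against that of its gene.
ENAH exon: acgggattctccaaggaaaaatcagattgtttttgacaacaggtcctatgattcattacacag
The signal on this exon was 38.5, 43.9 and 31.3 in Control, against 11.4, 8.66 and 9.38 with DCC-2036, while the ENAH value itself was higher in all 3 DCC-2036 libraries. As a share of the ENAH transcript value, the exon fell from 1.97%, 2.34% and 1.83% to 0.437%, 0.260% and 0.238%, with every DCC-2036 library below every Control library. These values are low. The ends of the GENCODE models matched here also differ, as they do for the CTNND1 and FN1 extra domain A pairs, and which ends were used for the deposited values is not given in the sources used here.

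The CD44 variable exons, 9 exons of 1143 bases in all that ESRP proteins also include, moved the other way. Their share of the long CD44 transcript was 37.6%, 36.7% and 36.5% in Control, against 48.3%, 47.5% and 47.2% with DCC-2036. The groups were far apart relative to their SDs of 0.595 and 0.543 percentage points (n = 3 each). A pair of inner CTNND1 exons, 408 bases in all, took 1.04%, 0.987% and 1.47% in Control, against 1.48%, 1.80% and 2.54% with DCC-2036. Control replicate 3 was just below DCC-2036 replicate 1, and the difference in means, 0.771 percentage points, was 0.4705 without DCC-2036 replicate 3. The FGFR2 pair was likewise chosen after its values had been seen. Its transcript with the epithelial IIIb exon exceeded the one with the mesenchymal IIIc exon in every library, by 42.3, 44.8 and 49.7 in Control, against 54.9, 31.4 and 28.2 with DCC-2036. These differences overlapped between the groups and are not shares of the transcript. The IIIb transcript itself was at 489, 440 and 425 in Control, against 485, 403 and 286 with DCC-2036.

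FN1 itself has alternative exons for extra domains A and B, which are typical of tissue and tumour fibronectin. The signal on the exon of extra domain A, 270 bases, was 24.5, 18.4 and 20.2 in Control, against 43.5, 36.8 and 44.6 with DCC-2036. All 3 DCC-2036 values were higher, as were those of FN1. As a share of the FN1 transcript, the exon took 5.29%, 3.54% and 3.81% in Control, against 6.43%, 4.33% and 5.02% with DCC-2036, and these shares overlapped. The difference in means, 1.0454 percentage points, was 0.4607 without DCC-2036 replicate 1 and 1.58 without Control replicate 1. The exon of extra domain B, 273 bases, took 1.80%, 0.834% and 1.70% against 2.83%, 1.38% and 1.43%. The shares overlapped there too, and the difference in means, 0.435 percentage points, ran from -0.0374 without DCC-2036 replicate 1 to 0.684 without DCC-2036 replicate 2.

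For 5 of the 6 members with a mean of at least 100, all but ESRP1, the genes with the nearest profile over the 6 libraries are given. Nearest was the smallest distance between log2 values centred on each gene's own mean. For SNAI1 these were ATG7, GPI and BRE, at distances of 0.0825 to 0.119. For FN1 they were IFITM3, GAPDH and ATP5L (0.0563 to 0.0749), of which GAPDH is a common reference transcript. GRHL2 was nearest to CDC42EP4, HDAC5 and STK32C (0.132 to 0.141), and OVOL1 to FAM129B, C6orf132 and ARHGAP10 (0.0562 to 0.0901). Of these 5, VIM had the most distant neighbours, AMOT, HRK and CDSN (0.382 to 0.537). These distances are descriptions over 6 libraries that the genes share.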

How the data were processed

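RNA of LoVo cells was measured in 3 Control and 3 DCC-2036 libraries (2.5 μM, 48 h per the labels), grouped by their titles. The authors deposited 1 value per RefSeq transcript and library, a normalized signal. Aligner, counter, scaling, strand setting and build are not given in the sources used here. The authors' own log2 fold changes, p-values and q-values were not used. The table has 45006 transcripts. Per symbol, the transcript with the highest mean was used. Symbols that reached 10 in 3 or more libraries were tested with limma 3.58.1 (R 4.3.3) on log2(value + 1), which understates changes of low genes, with Benjamini-Hochberg adjustment. The code was tested on simulated data. Members and lists were chosen with earlier results of these data known. From each list the 2 most abundant and up to 3 called genes with the largest change were named, and per member the 3 nearest profiles. Those of ESRP1 are not reported here. Other genes were chosen after their values were seen. Exons, lengths and coordinates came from GENCODE 29 (GRCh38), promoters from RefSeq. Python 3.11.15, numpy 2.4.6, pandas 2.3.3, scipy 1.17.1 and matplotlib 3.10.9 were used. Alternatives were 3 scalings, other filters, a pseudocount of 0.1, a replicate block, a limma trend, the mean over transcripts, other call limits and each library left out. Count-based alternatives were not run, since the table holds no counts.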

Additional observations from a re-analysis of the deposited data

How the results depend on the processing

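Of 29 genes followed through 15 alternatives each, 11 kept their direction and their side of the limit throughout, ESRP2 and CDH1 among them. SNAI1, TCF3, KLF5 and VIM are also among the 11, but they kept their side by not being called in any of the 15. The number of members called higher was 1 in the fit as reported. It was 0 with equal totals (1669 of all 12737 tested genes called higher), with no filter (1749 of 16667) and with a replicate block (1202 of 12725). It was also 0 when fold changes under 1 on the log2 scale, in either direction, were left out (944 of 12725). With the mean over transcripts it was 2 (2455 of 12670). At an adjusted p limit of 0.05 it was 3, beside 28.5% of all tested genes called higher at that limit. It ran from 0 to 2 with single libraries left out, and the number called lower was 0 throughout. With the fold change limit, 944 of all tested genes were called higher and 1930 lower. With single libraries left out, 928 to 2675 were called higher and 1514 to 3507 lower. With equal totals, 32.7% of all calls were higher, beside 45.8% as reported and 50.7% with median-of-ratios scaling.

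The replicate block gave 1202 higher and 1909 lower genes. Under it FN1, FOXC1 and RBM47 lost their calls (adjusted p = 0.0110, 0.0152 and 0.0114 in limma). So did HDAC1, CTNND1 and ENAH (adjusted p = 0.0151, 0.0114 and 0.0231 in limma). VIM moved the other way, from an adjusted p of 0.309 to 0.0419 in limma, and was not called. The log2 fold changes were unchanged. The labels do not say whether the replicate numbers pair the samples. Deviations of same-numbered libraries correlated at 0.081, -0.035 and -0.003, and those of unlike numbers at -0.0599 to 0.0909. These values are taken over all tested genes, and a pairing that touches only a few genes was not tested.

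Signs turned where differences were small. With median-of-ratios scaling ESRP1 was at 0.018 and OVOL1 at 0.0498, and with equal totals SOX4 was at -0.17 and KRT19 at -0.16. With single libraries left out, log2 fold changes ran from -0.17 to 0.0478 for ESRP1, from -0.15 to 0.17 for OVOL1 and from -0.0109 to 0.0755 for SOX4, and the share of the FN1 extra domain B exon changed by -0.0374 to 0.684 percentage points. The causes were not tested. Chosen after seeing the data were the exons, all transcripts as separate rows, other transcript pairs and exon shares with single libraries left out. Depth is unknown, so precision rests on 3 libraries per group.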
